A study of Rattus norvegicus with 6 samples.

Results

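The genes described here encode potassium channels, voltage-gated calcium channels, the channels and pumps of the intracellular calcium store, and the proteins that refill that store. They were taken from the count table by symbol: names that start with Kcn or Cacn, the IP3 receptors Itpr1 to Itpr3, the ryanodine receptors Ryr1 to Ryr3, the calcium pumps of the Atp2a and Atp2b families, Stim1, Stim2 and Orai1 to Orai3. This gave 138 of the 22574 genes in the table, 94 of them potassium channel genes, 26 calcium channel genes and 18 genes of calcium release, pumping and store-operated entry. The cells were primary rat aortic vascular smooth muscle cells (RASMCs) of male Sprague-Dawley rats that were 8 weeks old. RNA of 6 cultures was sequenced, 3 challenged with citrullinated histone H3 (H3CIT, 0.03 μM) plus double-stranded DNA (dsDNA, 300 ng/ml), which are components of extracellular traps, and 3 treated with bovine serum albumin as control. The labels write the challenge as CitH3+dsDNA, and how long it lasted before RNA extraction is not given in the sources used here. In vitro replicates were, by the study's description, wells filled from 1 animal, so differences between replicate libraries reflect wells and library handling and not animals. The challenged libraries held 17997198, 17573905 and 18009324 counts and the control libraries 18031326, 18742395 and 18594365, of which these 138 genes took between 0.184% and 0.196%.

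In arterial smooth muscle the force of contraction follows the calcium level of the cytosol. Potassium channels set the membrane potential, voltage-gated L-type calcium channels open on depolarization, and IP3 and ryanodine receptors release calcium from the sarcoplasmic reticulum. SERCA pumps return calcium to that store, plasma membrane pumps expel it, and STIM sensors open ORAI channels when the store runs low. Smooth muscle cells in culture are known to drift from this contractile program towards a synthetic state with another set of channels.

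No channel, pump or store gene passed the test. Of the 138 genes, 63 had enough counts to enter edgeR's quasi-likelihood test over all genes, and 0 of the 63 had an adjusted p-value under 0.05, either higher or lower. Over all 12591 genes tested, 277 were called, which is 2.20%, with 1.94% called higher and 0.262% called lower. At an unadjusted p-value under 0.05, 4 of the 63 genes passed, all higher after H3CIT+dsDNA, against 13.9% of all genes tested. DESeq2 and limma-voom also called 0 of the 63, with 3 and 4 genes at an unadjusted p-value under 0.05. The smallest adjusted p-value of any of these genes was 0.113 in edgeR. In bulk RNA, fewer cells of a type and less RNA per cell cannot be told apart.

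Of the 63 genes, 55 had 10 or more counts in every library. Their median log2 fold change was 0.02, against -0.0017 for the 12045 genes of the whole table with as many counts, and 34 of the 55 estimates were positive, 61.8% against 49.3% of those genes. With upper-quartile scaling the median was -0.0001. Estimates ran from -0.62 to 0.68. The 3 challenged libraries lay entirely above or below the 3 controls, in CPM (a gene's counts relative to the scaled size of its library), for 8 of the 55 genes, 5 higher and 3 lower, against 19.3% of all genes with as many counts. Among the 36 genes with a mean of 100 or more counts, the estimates lay between -0.15 and 0.27. The 95% interval of all 36 lay within 0.5 on the log2 scale in either direction, a fold of 1.41. So did the intervals of 94.9% of all genes with such a mean. These intervals are for each gene on its own and are not adjusted for the number of genes. Genes with fewer counts were measured more coarsely. The interval reached past 1 on the log2 scale in 4 of the 55 genes, Kcnj8, Kcnj15, Kcnh8 and Ryr2. Kcnj8 and Kcnj15 lay just inside the limit, with a lowest library of 10 counts each, and Kcnmb4 just outside it, with a lowest library of 8.

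**Figure D1:**
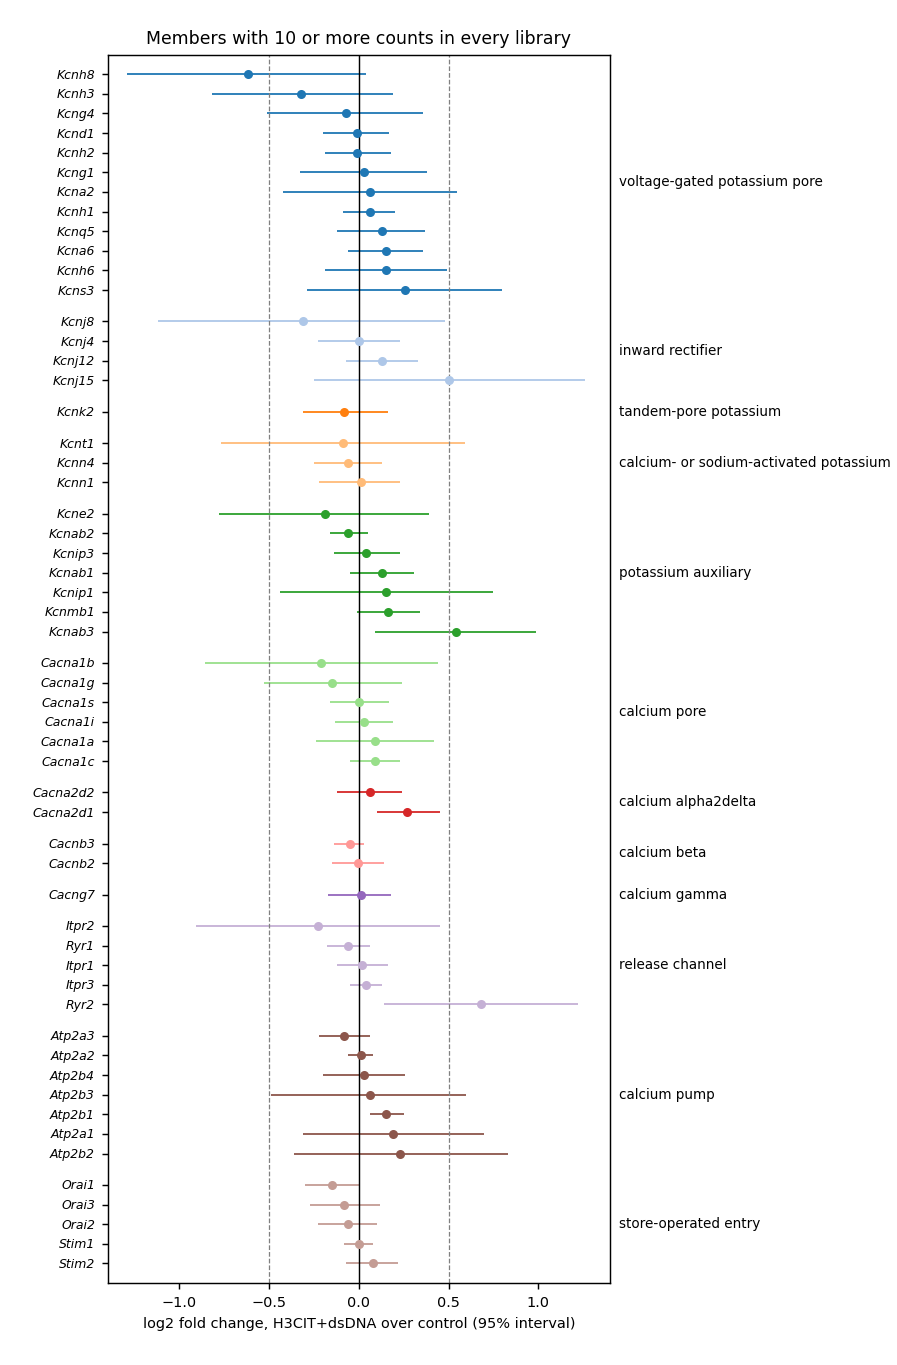
Log2 fold change of H3CIT+dsDNA over control (x axis) with its 95% interval for the 55 genes with 10 or more counts in every library, grouped by family. Dashed lines mark 0.5 on the log2 scale. Estimates run from -0.62 for Kcnh8 to 0.68 for Ryr2 and none passed the test after adjustment.

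Of the 10 pore genes of voltage-gated calcium channels, 6 were tested and none of these separated the groups in CPM. Of all genes with 10 or more counts in every library, 19.3% did. Cacna1c, the L-type pore of arterial muscle, had 1831, 1537 and 1871 counts with H3CIT+dsDNA and 1502, 1788 and 1730 without. The groups overlapped, at 97.1 ± 8.61 and 91.2 ± 6.33 CPM (SD, n = 3 each), with a log2 fold change of 0.09 (95% interval -0.05 to 0.23). Cacna1s, the L-type pore best known from skeletal muscle, had between 341 and 393 counts in all libraries and a log2 fold change of 0.0033 (95% interval -0.16 to 0.17). The T-type pore Cacna1i was likewise within 0.03 of no change (95% interval -0.13 to 0.19), while the T-type pore Cacna1g, at 56 to 90 counts, had an estimate of -0.15 (95% interval -0.53 to 0.24). The P/Q-type pore Cacna1a was at 0.09 and the N-type pore Cacna1b at -0.21, both with intervals that include no change. Cacna1d never exceeded 2 counts and Cacna1h never exceeded 8, so a small change or a fall in these pores was not detectable at this depth.

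Cacna2d1, the α2δ subunit that aids surface expression of L-type channels, had the second smallest p-value of the whole group. It had 913, 898 and 895 counts in challenged cells against 627, 855 and 808 in control cells. All challenged libraries were higher than all controls, and control replicate 1 was the lowest of the 6. The log2 fold change was 0.27 (95% interval 0.10 to 0.45), a fold of 1.21, with an adjusted p of 0.128 from edgeR. Without control replicate 1 the estimate was 0.16 (adjusted p = 0.296), and its adjusted p under the 15 alternatives ran from 0.0648 to 0.352. The related Cacna2d2 was at 0.06 (95% interval -0.12 to 0.24). The β subunits, which bind the pore inside the cell, did not separate the groups. Cacnb3 had 2327, 2336 and 2344 counts against 2424, 2565 and 2425, with an estimate of -0.05 (95% interval -0.14 to 0.03), and Cacnb2 was at -0.0032 (95% interval -0.15 to 0.14). Among the γ subunits 7 of 8 had under 10 counts in every library, and Cacng7 was at 0.01.

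Release of stored calcium was represented by 5 tested genes. Itpr3, an IP3 receptor, had 2949, 2723 and 2948 counts with H3CIT+dsDNA and 2686, 2871 and 3012 without. The log2 fold change was 0.04 (95% interval -0.05 to 0.13). Itpr1, the IP3 receptor usually named for smooth muscle, had 2305, 2281 and 2440 counts against 2031, 2434 and 2623, so that the controls spanned the challenged libraries on both sides. Its log2 fold change was 0.02 (95% interval -0.12 to 0.16). Itpr2 had only 17 to 35 counts and an estimate of -0.23 (95% interval -0.91 to 0.45).

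The estimates of the ryanodine receptors Ryr2 and Ryr1 had opposite signs. Ryr2, the isoform of heart muscle that also gives calcium sparks in arteries, had 32, 33 and 34 counts with H3CIT+dsDNA and 17, 22 and 24 without. All challenged libraries were above all controls, at 1.84 ± 0.0623 and 1.14 ± 0.174 CPM (SD, n = 3 each). The log2 fold change of 0.68 was the largest among the 55 genes (95% interval 0.14 to 1.22), a fold of 1.60, and the adjusted p was 0.234 from edgeR, with a range of 0.180 to 0.532 over the alternatives. The 3 challenged counts of Ryr2 are consecutive whole numbers. Such a run occurred in 1 of the 55 genes in the challenged group and in 0.399% of all genes with 10 or more counts in every library, or 1.72% of those with a mean under 100 counts, as Ryr2 has. Its origin was not tested. Ryr1, the skeletal muscle isoform, had 699, 639 and 709 counts against 709, 726 and 742. In CPM all challenged libraries were below all controls, but the log2 fold change was only -0.06 (95% interval -0.18 to 0.06). Ryr3, with at most 8 counts, was not tested.

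Among the calcium pumps, Atp2b1 had the smallest p-value of the whole group. This gene encodes PMCA1, the widely expressed plasma membrane pump. Its counts were 2624, 2339 and 2632 in challenged libraries and 2232, 2301 and 2423 in control libraries. After scaling, all challenged libraries were above all controls, at 141 ± 7.00 CPM against 127 ± 3.52 CPM (SD, n = 3 each). The log2 fold change was 0.15 (95% interval 0.06 to 0.25), a fold of 1.11, with an adjusted p of 0.113 from edgeR. Without H3CIT+dsDNA replicate 2, the lowest challenged library, it was 0.19 with an adjusted p of 0.0429, the only call of any of these genes under the 15 alternatives. Over all 15 the adjusted p ran up to 0.407. Atp2b4, another plasma membrane pump of vascular muscle, was at 0.03 (95% interval -0.20 to 0.26).

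Atp2a2, the gene of the SERCA2 pump that fills the store, was the most counted gene of the group. The challenged libraries held 7872, 7542 and 7708 of its counts and the controls 7542, 7784 and 8123. The groups overlapped almost fully, at 429 ± 4.84 and 427 ± 9.73 CPM (SD, n = 3 each), and the 95% interval of the log2 fold change was -0.06 to 0.08. Atp2a3, the SERCA3 gene, was at -0.08 (95% interval -0.22 to 0.06). Atp2a1, Atp2b2 and Atp2b3 had between 19 and 52 counts, with estimates from 0.06 to 0.23 that their intervals do not separate from no change.

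None of the 5 genes of store-operated entry separated the groups in CPM, where 19.3% of all genes with 10 or more counts in every library did. Stim1, the calcium sensor of the store, had 2761, 2663 and 2668 counts against 2647, 2778 and 2813. Both groups had a mean of 150 CPM and the log2 fold change was 0.0024 (95% interval -0.08 to 0.08). Stim2, its more sensitive relative, was at 0.08 (95% interval -0.07 to 0.22). Orai1, the channel that STIM1 opens, had 581, 543 and 555 counts with H3CIT+dsDNA and 656, 579 and 664 without. Its groups overlapped only through control replicate 2. The log2 fold change of Orai1 was -0.15 (95% interval -0.30 to 0.0014, adjusted p = 0.365 from edgeR). Orai2 was at -0.06 and Orai3 at -0.08, with 95% intervals of -0.23 to 0.10 and -0.27 to 0.12.

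**Figure D2:**
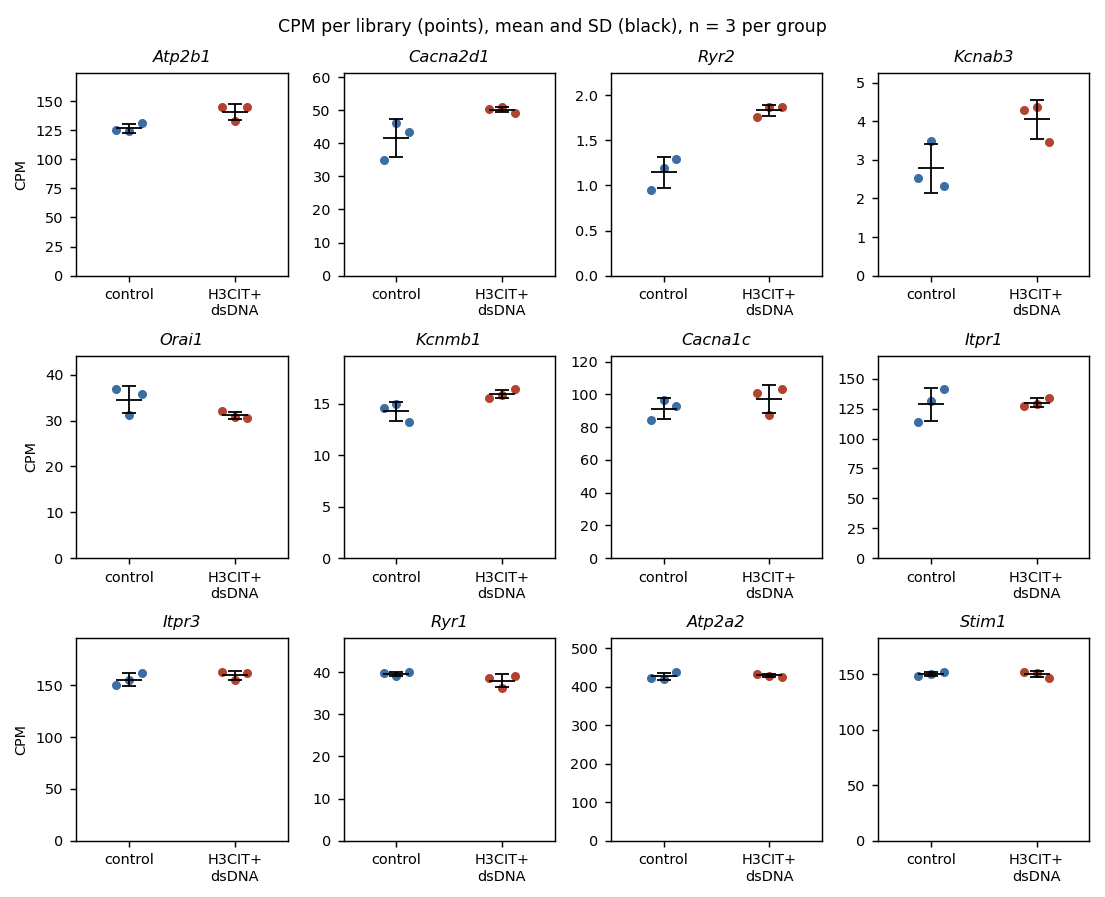
CPM in each library (points, y axis from 0) for 12 calcium and potassium genes, with the mean and SD of the 3 libraries of each group in black. Atp2b1, Cacna2d1, Ryr2 and Kcnmb1 show challenged libraries above all controls, Ryr1 shows them below, and the other 7 genes overlap.

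The large-conductance calcium-activated channel, which hyperpolarizes arterial muscle after a calcium spark, consists of a pore encoded by Kcnma1 and auxiliary β subunits. Kcnma1 had 12, 8 and 11 counts with H3CIT+dsDNA and 9, 9 and 6 without, which was below the filter for testing. Kcnmb1, the β1 subunit typical of smooth muscle, had 282, 281 and 298 counts against 261, 279 and 245. All challenged libraries were above all controls in CPM, with a log2 fold change of 0.16 (95% interval -0.01 to 0.34, adjusted p = 0.403 from edgeR). Kcnmb4, the β4 subunit better known from brain, had 18, 16 and 15 counts against 10, 13 and 8 and also did not overlap (log2 fold change 0.68, 95% interval -0.03 to 1.41, adjusted p = 0.385 from edgeR). Kcnn4, the intermediate-conductance channel linked to proliferating smooth muscle, had 410, 488 and 403 counts against 437, 465 and 483, an estimate of -0.06 (95% interval -0.25 to 0.13). Kcnn1 was at 0.01 (95% interval -0.22 to 0.23).

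Voltage-gated potassium pore genes numbered 40, of which 14 were tested and 24 had under 10 counts in every library. The most counted was Kcnh1, the ether-à-go-go pore, with 639, 536 and 619 counts against 576, 597 and 585, and its estimate was 0.06 (95% interval -0.09 to 0.20). Kcnq5, a KCNQ pore found in arteries, was at 0.13 (95% interval -0.12 to 0.37), and Kcnd1 and Kcnh2 were both at -0.01. Kcna6 had 201, 188 and 203 counts against 190, 173 and 180, with all challenged libraries higher in CPM and an estimate of 0.15 (95% interval -0.06 to 0.36). Kcnh8 and Kcnh3, relatives of Kcnh1 known mainly from the nervous system, had the 2 lowest estimates. Kcnh8 had 12, 11 and 12 counts against 15, 20 and 20, an estimate of -0.62 (95% interval -1.29 to 0.04, adjusted p = 0.395 from edgeR). Kcnh3 had 28, 33 and 35 counts against 36, 49 and 37, an estimate of -0.32 (95% interval -0.82 to 0.19). In both genes every challenged library was below every control. Kcns3, a silent subunit that modifies other pores, was at 0.26 (95% interval -0.29 to 0.80).

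Of the potassium channel auxiliaries, Kcnab3, a β subunit of voltage-gated pores, had 78, 77 and 63 counts with H3CIT+dsDNA and 45, 65 and 43 without. Control replicate 2 overlapped the challenged libraries. The log2 fold change was 0.54 (95% interval 0.09 to 0.99, adjusted p = 0.260 from edgeR). The other β subunits were nearer to no change, Kcnab1 at 0.13 (95% interval -0.05 to 0.31) and Kcnab2 at -0.06 (95% interval -0.16 to 0.05). Inward rectifiers, which hold the resting potential, were led in counts by Kcnj12 (estimate 0.13, 95% interval -0.07 to 0.33) and Kcnj4 (0.0025, 95% interval -0.23 to 0.23). Kcnj15 had 10 to 21 counts and an estimate of 0.50 (95% interval -0.25 to 1.26). Kcnj8, the pore of the vascular ATP-sensitive channel, had 10 to 19 counts and an estimate of -0.31 (95% interval -1.12 to 0.48). Of 14 tandem-pore channels, which carry background potassium current, only Kcnk2 had 10 or more counts in every library, at -0.08 (95% interval -0.31 to 0.16).

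The 8 genes tested despite a library under 10 counts included Cacna2d4, Cacnb1, Kcnn3, Kcnj14, Kcnmb4, Kcnk4 and Kcng2. Of the 8 only Kcnmb4 separated the groups in CPM, as 2404 of all 12591 genes tested did. Cacnb1 shows how loosely such genes are measured, with 42, 9 and 18 counts in controls and a 95% interval of -1.06 to 0.88.

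Several channels that textbooks place in arterial smooth muscle were close to or at 0. Of the 138 genes, 70 had under 10 counts in every library and 18 had no count in any. Kcna5, the Kv1.5 pore, Kcnj2, the Kir2.1 rectifier, and Kcnk6 were among the 18. For these genes a floor of 3 counts corresponds to between 0.162 and 0.170 CPM per library, as far as counting error goes. The acid-sensitive tandem-pore channel Kcnk3 had at most 1 count in a library and the KCNQ pore Kcnq1 at most 4. Without the low-count filter 120 of the 138 genes were tested and none was called. Small differences or falls from such low counts were not detectable at this depth.

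Summed over families, the differences stayed small. The summed CPM of the challenged libraries differed from that of the controls by between -5.34% for tandem-pore channels and 4.39% for inward rectifiers in 11 of the 12 families. The exception was the α2δ family, of which Cacna2d1 held 76.8% of the counts. It had 64.7, 64.6 and 64.0 CPM after H3CIT+dsDNA and 49.1, 59.2 and 56.9 CPM in controls, a difference of 17.0% without overlap, which is 0.23 as a log2 ratio and 0.15 without control replicate 1. Its exact permutation p of 0.1, two-sided, is the smallest that 3 libraries against 3 can give, and it is 0.750 after Benjamini-Hochberg adjustment over the 12 families. Calcium pumps summed to 624 ± 10.4 and 609 ± 15.5 CPM (SD, n = 3 each), release channels to 332 ± 7.86 and 327 ± 20.1 CPM, and STIM and ORAI genes to 255 ± 6.77 and 259 ± 5.53 CPM.

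**Figure D3:**
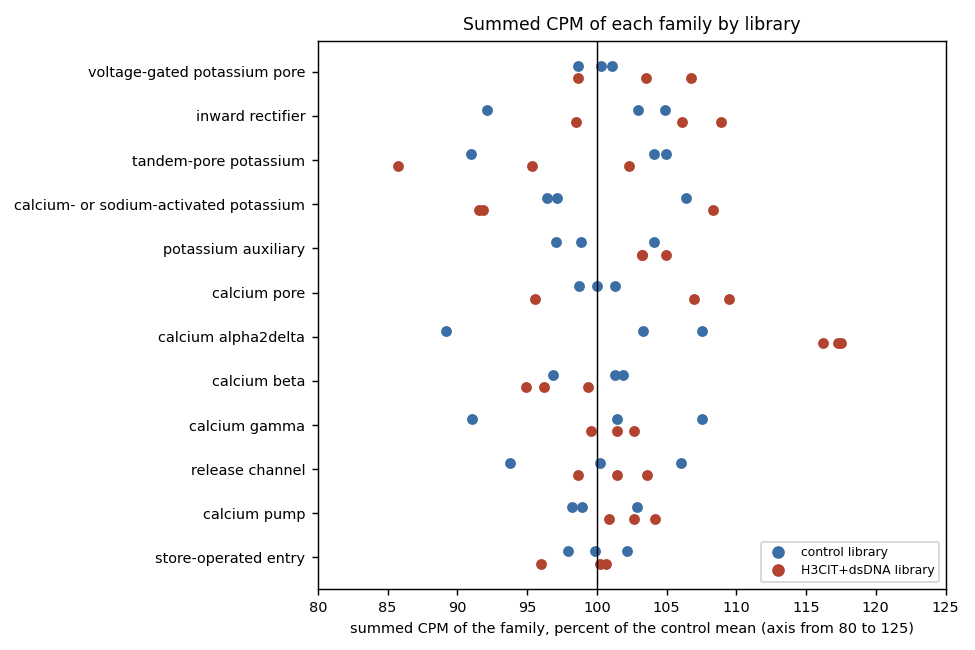
Summed CPM of each family in each library, as a percent of the mean of the 3 control libraries (x axis, which does not start at 0). The α2δ family has all 3 challenged libraries above all controls, with a mean difference of 17.0% (a log2 ratio of 0.23, or 0.15 without control replicate 1), and the other 11 families overlap.

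The proteins that act on or after these channels were described through 85 further genes of calcium handling and contraction, of which 71 were tested. In edgeR's quasi-likelihood test 5 of the 71 were called, 4 higher and 1 lower, where 2.20% of all genes tested were called. The list was chosen with earlier results of these data known, so its share of calls is no test of these genes as a group. Rock2, a kinase that sensitizes the contractile apparatus to calcium, had 2413, 2353 and 2382 counts with H3CIT+dsDNA and 1760, 2073 and 2107 without. Every challenged library was higher than every control, and Rock2 rose by 0.30 in log2 units (95% interval 0.19 to 0.41, adjusted p = 0.00613 from edgeR). Ppp1r12a, the targeting subunit MYPT1 of myosin phosphatase, on which that kinase acts, rose by 0.26 (95% interval 0.16 to 0.37, adjusted p = 0.0106). Its counts were 1386, 1269 and 1293 against 1036, 1176 and 1148. Trpm7, a divalent cation channel with a kinase domain, had 934, 829 and 889 counts against 692, 767 and 791 and rose by 0.27 (95% interval 0.14 to 0.39, adjusted p = 0.0266). Pdzd8, a protein of contact sites between the endoplasmic reticulum and other organelles, had 692, 656 and 682 counts against 547, 551 and 599 and rose by 0.29 (95% interval 0.16 to 0.41, adjusted p = 0.0187).

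Bcl2 was the gene of this list that fell. It encodes an antiapoptotic protein that also binds IP3 receptors. The challenged libraries held 54, 56 and 58 counts and the controls 120, 114 and 132, so the groups lay far apart. Bcl2 fell by 1.09 in log2 units (95% interval -1.42 to -0.77, adjusted p = 0.000765 from edgeR). Bcl2 and Rock2 kept their calls under all 15 alternatives. Ppp1r12a lost its call without H3CIT+dsDNA replicate 1 (adjusted p = 0.0858) and without control replicate 1 (adjusted p = 0.0639). Under the replicate block Trpm7 (adjusted p = 0.0821) and Pdzd8 (adjusted p = 0.0519) were not called. Trpm7 also lost its call without H3CIT+dsDNA replicate 1 (adjusted p = 0.176) or 3 (0.0989) and without control replicate 1 (0.130) or 2 (0.0963), and Pdzd8 without any 1 of the 6 libraries other than control replicate 3, with adjusted p-values of 0.0506 to 0.104.

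The other genes of the contractile calcium pathway did not pass the test. Rock1 had 820, 715 and 796 counts against 595, 700 and 693, with an estimate of 0.26 and an adjusted p of 0.0678 from edgeR, and it was called under 3 of the 15 alternatives (adjusted p down to 0.0275). Calm2, a calmodulin gene, had an estimate of -0.19 (adjusted p = 0.0882), and it was called under 4 of the 15 alternatives. Its relative Calm3 was at -0.05. Mylk, the myosin light chain kinase that calmodulin activates, was at -0.01 (95% interval -0.10 to 0.08). The sodium-calcium exchanger Slc8a1 was at 0.07 (95% interval -0.03 to 0.17), the store protein Casq2 at -0.09 (95% interval -0.16 to -0.02, adjusted p = 0.223) and Jph2, which holds the store against the plasma membrane, at -0.09 (95% interval -0.21 to 0.03). Pln, the phospholamban gene whose product inhibits SERCA, had 37 to 50 counts and an estimate of 0.17.

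**Figure D4:**
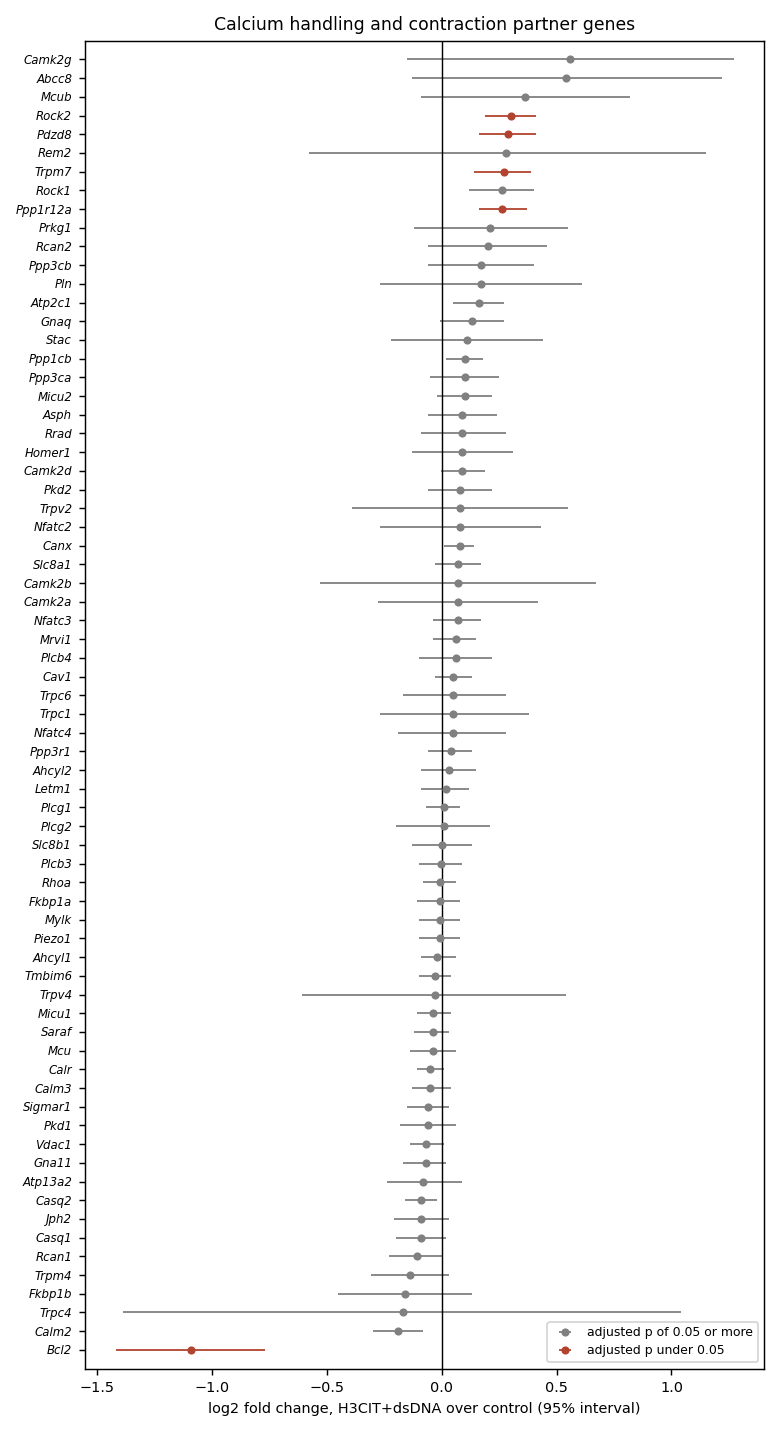
Log2 fold change of H3CIT+dsDNA over control (x axis) with its 95% interval for the tested partner genes reported here, ordered by estimate. The 5 genes called by edgeR are in red, with Bcl2 lowest at -1.09 and Rock2, Pdzd8, Trpm7 and Ppp1r12a between 0.26 and 0.30.

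Cell type markers were measured alongside. All 10 smooth muscle markers were tested. Acta2, Tagln, Cnn1 and Smtn fell and Myocd, the coactivator of the contractile program, rose, with log2 fold changes of -0.69, -0.40, -1.57, -0.21 and 1.09 (adjusted p = 6.51e-06, 2.86e-05, 9.54e-08, 0.0386 and 1.60e-06 from edgeR). Acta2 and Tagln are genes that the study picked out from these libraries, so they are not independent of its results. Smtn was called under 7 of the 15 alternatives, with an adjusted p of up to 0.202. Smooth muscle myosin Myh11 at 0.06, Des and Lmod1 at -0.06, Synpo2 at -0.04 and Ldb3 at 0.04 did not pass the test. The summed level of the 10 markers was 5766, 6139 and 6323 CPM after H3CIT+dsDNA and 8970, 9244 and 8504 CPM in controls, with Acta2 the most abundant. Acta2 had means of 3115 and 5025 CPM and Tagln of 2032 and 2690 CPM, so the sum mainly follows these 2 genes.

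Endothelium and adventitia were taken off the aortas before the cells were grown, and no tested marker of another cell type passed the test. The 10 macrophage markers summed to 74.1 to 76.3 CPM after H3CIT+dsDNA and to 75.2 to 78.6 CPM in controls, most of it Cd14, with at most 1 count per library for Ptprc, Itgam, Mrc1 and Cd163. The 8 endothelial markers summed to 8.44, 8.91 and 8.76 CPM after H3CIT+dsDNA, below the 9.92 to 10.6 CPM of the controls, and were led by Cdh5, with Kdr and Emcn at most at 1 count. The 6 fibroblast markers lay between 2.59 and 4.93 CPM, led by Pi16, with Cd34 at 0. The 7 markers of neurons and glia lay between 10.9 and 13.5 CPM, mostly Syt1, and the 5 of heart muscle between 150 and 172 CPM, almost all Tnnt2, with Nppa at most at 1 count. The part of these marker levels in the channel values was not tested.

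**Figure D5:**
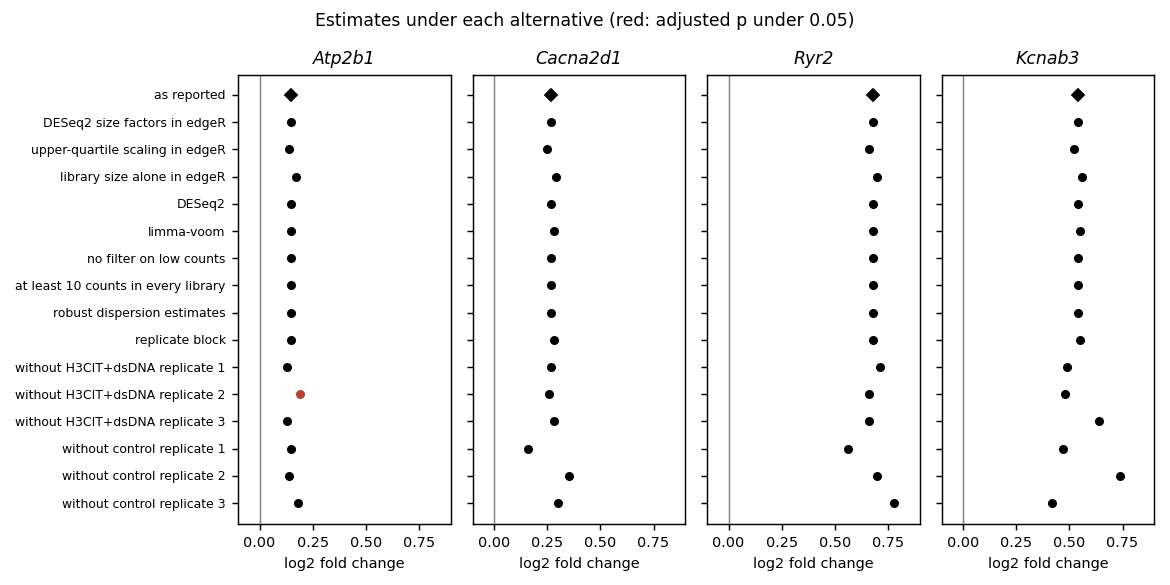
Log2 fold change of the 4 genes with an unadjusted p-value under 0.05 (x axis) as reported and under each of the 15 alternatives (y axis). All estimates are above 0, and the only adjusted p-value under 0.05, in red, is that of Atp2b1 without H3CIT+dsDNA replicate 2.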

How the data were processed

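The authors made stranded mRNA libraries, aligned reads to Rnor6.0 with TopHat 2.1.1 and counted them per gene with HTSeq, and the authors deposited raw counts, not normalized, for 22574 symbols in 6 libraries. The labels also name Cufflinks 2.2.1 and Cuffdiff without a role. The strand setting of the counting is not given in the sources used here, so overlapping and antisense genes can share reads.

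After edgeR's filterByExpr and TMM scaling, groups were compared by the two-sided quasi-likelihood test of edgeR 4.0.16 (R 4.3.3). P-values were adjusted by Benjamini-Hochberg over 12591 genes, and a call is an adjusted p-value under 0.05. CPM are counts over TMM-scaled library sizes. CPM are not per length, so a gene said to lead a list or family leads it in counts or CPM only. Standard errors and 95% intervals were derived from the F statistic and the coefficient without shrinkage. Family sums were compared with an exact permutation test.

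Members and lists were chosen with earlier results of these data known. The genes named are those called, the 5 largest rises, 5 largest falls and 5 smallest p-values among genes with 10 or more counts in every library, and 35 genes of known use in vascular muscle; others were chosen after their values were seen, and some are not reported here. The 15 alternatives were 3 other scalings, DESeq2 1.42.0, limma-voom (limma 3.58.1), no filter, 10 counts in every library, robust dispersions, a replicate block, and the omission of 1 library at a time. The fits were tested on simulated data, but the outcome is not reported here and no result rests on it. No pair of replicates was as close as counting noise (smallest chi-square per gene 3.28). All 138 symbols have an entry in RefSeq GRCr8, which was used for names only. No promoter or protein sequence was analysed, since no gene of the group was called.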

Additional observations from a re-analysis of the deposited data

How the results depend on the processing

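The number of called channel, pump and store genes was 0 under 14 of the 15 alternatives and 0 to 1 with a library omitted, the 1 being Atp2b1, higher, without H3CIT+dsDNA replicate 2. Their median log2 fold change, 0.02, was -0.0001 after upper-quartile scaling, 0.04 when only library size was used, and between 0.0016 and 0.04 with a library left out. The median of all genes moved from -0.0017 to -0.02 and 0.02 under those 2 scalings. Log2 ratios of the family sums also moved when a library was left out. The α2δ ratio of 0.23 was 0.15 without control replicate 1. The release channel ratio of 0.02 was -0.03 without that library, and the calcium pore ratio of 0.06 was 0.11 without H3CIT+dsDNA replicate 2. Of the 85 partner genes 5 were called, with 6 when only library size was used and with DESeq2, 7 without the low-count filter and with robust dispersions, 3 under the replicate block, 2 of them higher, and 2 to 5 with a library left out (1 to 4 higher, 1 to 2 lower). The 1 lower partner gene became 2 with DESeq2, without the low-count filter and with robust dispersions, Bcl2 being joined by Calm2. Over all genes the 277 calls ran from 164 to 357 with a library left out, 147 to 300 higher and 17 to 57 lower. The 33 lower calls were 51 with DESeq2, 58 with no filter and 50 with robust dispersions; the cause was not tested.

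The replicate block called 212 genes, 200 of them among the 277, and 0 channel, pump or store genes. Replicate numbers were not taken as pairs, since deviations from the group means correlated at -0.0458, 0.00452 and 0.0355 for libraries of the same number. Under the alternatives 524 values were compared, for 30 tested channel, pump and store genes named by the rule and the 5 called partner genes. Of these values 510 kept their side of the threshold, 13 lost a call and 1 gained one, and 0 calls changed direction. Estimates of genes that were not called could change sign, as for Cacna1b, at -0.21 as reported and at 0.02 without H3CIT+dsDNA replicate 1. Outside that tally Rock1 and Calm2 gained a call under 3 and 4 of the 15 alternatives, and Smtn kept its call under 7. Genes under 10 counts are limited by depth.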

Other observations

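The make-up of 8 gene families, as the percent of the family's counts each gene took in a library, was looked at after the values had been seen. Of 25 such percentages, 3 separated the groups without overlap. In CPM 19.3% of all genes with 10 or more counts in every library did so. That share is for single genes and is no background rate for percentages within a family, some of them of genes with fewer counts. The percentages of Ryr1 and Ryr2 are not separate observations, since those of a family sum to the whole. Of the ryanodine receptor counts Ryr2 took 4.35%, 4.90% and 4.54% with H3CIT+dsDNA against 2.32%, 2.93% and 3.10% without, and Ryr1 took a mean of 94.8% against 96.4%. Kcnab3 took 5.02%, 5.25% and 4.30% of the counts of Kcnab1 to Kcnab3 against 3.22%, 4.16% and 2.83%. Each has an exact permutation p of 0.1, two-sided, the smallest that 3 libraries against 3 can give, and 0.682 after Benjamini-Hochberg adjustment over the 25. Percentages of counts depend on transcript length and are compared here between libraries only. The balance of the IP3 receptors, of SERCA genes, of plasma membrane pumps, of STIM and ORAI genes and of calcium channel β subunits overlapped between the groups.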
